A study of Mus musculus with 20 samples.

Results

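Peaks of m6A were examined where their summit, the base of highest signal, lay in the coding sequence of an unusually long internal exon. A peak was kept when its summit fell on the strand of the gene, inside the coding sequence of a GENCODE M21 basic transcript on mm10, in an exon that was neither the first nor the last and had at least 400 bp, and more than 200 bp from any stop codon of the gene. Of 437949 peaks in the 10 lists, 26435 (6.04%) met this rule. Peaks of all 10 libraries that overlapped by at least 1 bp on the same strand were merged into 87498 regions, and the 2912 regions (3.33%) in which a majority of the peaks met the rule are called long exon regions here. They lay in 2750 exons of 2219 genes, and 1225 of these genes (55.2%) also had a peak around a stop codon. Of the peaks that met the rule, 2841 had their summit in sequence that is a first or last exon in another coding transcript of the gene. The choice used positions and annotation only, not peak heights or groups.

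The cells were mouse embryonic stem cells of the strain C57BL/6, cultured with serum, LIF, the GSK3 inhibitor CHIR99021 and the MEK inhibitor PD0325901, so every group shares both inhibitors. Chromatin-associated RNA, depleted of ribosomal RNA, was fragmented and immunoprecipitated with an antibody against N6-methyladenosine (m6A), then sequenced from stranded libraries. The 5 groups are a Mettl3 control, 2 Mettl3 knockout lines labelled KO1 and KO2, a Ythdc1 control and a Ythdc1 conditional knockout (cKO), with 2 immunoprecipitated libraries each. The 10 input samples were not analysed here. The labels used here do not give the deleted exons, the inducer or duration of the cKO, or whether a line is 1 clone. Nor do they say if replicate libraries are separate cultures, so a p-value here reflects library-to-library spread that may be technical.

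METTL3 is the catalytic subunit of the nuclear complex that methylates adenosines in messenger RNA, and YTHDC1 is the nuclear protein that binds the mark and takes part in splicing, export and the decay of chromatin-bound RNA. The mark is known to favour a GGAC core, to be dense around stop codons and to be frequent in long internal exons. Exon junction complexes, deposited just upstream of splice junctions, are reported to keep short internal exons largely free of m6A. Nearly all internal exons of mammalian genes are short, and the long ones often encode large disordered or repeated protein segments.

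Sequences of 101 nt around the summit show what these sites look like, printed 5′ to 3′ on the RNA strand from the GENCODE M21 transcripts (mm10) with each GGAC in capitals. The first set holds strong sites with a peak in all 10 libraries: exon 4 of Palb2 (chr7:122127146-122127246, minus strand), exon 4 of Elk4 (chr1:132018254-132018354, plus) and exon 5 of Map1a (chr2:121302569-121302669, plus).
Palb2: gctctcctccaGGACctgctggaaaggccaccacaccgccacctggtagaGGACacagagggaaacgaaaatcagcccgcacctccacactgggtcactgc
Elk4: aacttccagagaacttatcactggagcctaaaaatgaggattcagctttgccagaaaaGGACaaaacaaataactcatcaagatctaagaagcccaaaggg
Map1a: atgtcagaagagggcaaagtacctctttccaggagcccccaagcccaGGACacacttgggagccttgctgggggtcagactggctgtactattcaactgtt
In Palb2 and Map1a the A of a GGAC lies within 2 nt of the central base, the median summit. The second set holds strong control sites missing from all 4 Mettl3 knockout lists: exon 3 of Stox1 (chr10:62664683-62664783, minus), exon 2 of Tbc1d1 (chr5:64173632-64173732, plus) and exon 6 of Csf1 (chr3:107748717-107748817, minus).
Stox1: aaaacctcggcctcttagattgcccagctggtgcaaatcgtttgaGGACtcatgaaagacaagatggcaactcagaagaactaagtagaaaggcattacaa
Tbc1d1: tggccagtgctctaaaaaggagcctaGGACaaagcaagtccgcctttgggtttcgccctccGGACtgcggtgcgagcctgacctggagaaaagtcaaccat
Csf1: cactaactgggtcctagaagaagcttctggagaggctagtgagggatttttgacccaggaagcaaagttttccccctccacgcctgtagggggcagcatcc
Stox1 and Tbc1d1 hold the motif, whereas Csf1 holds none in this window. The last went the other way: exon 6 of Pclo (chr5:14680919-14681019, plus) had peaks in the Ythdc1 cKO alone.
Pclo: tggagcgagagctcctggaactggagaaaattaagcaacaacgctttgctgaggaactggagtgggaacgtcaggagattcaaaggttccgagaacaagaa
The Pclo window holds no GGAC, which says only that these letters are not within it.

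Every library placed a similar number of peaks in long internal coding exons. The Mettl3 controls had 2724 and 2707 such peaks, KO1 2485 and 2459, KO2 2648 and 2602, the Ythdc1 controls 2724 and 2727, and the cKO 2680 and 2679. All 4 Mettl3 knockout libraries were below both controls, by a mean of 167 peaks (exact two-sided permutation test over libraries, p = 0.133, where the smallest possible p is 0.067 for 2 against 4 libraries and 0.33 for 2 against 2). The lists held 40959 to 46735 peaks, and long exon peaks made up 5.79% to 6.50% of each. As a share of the list, long exon peaks were not lower in the Mettl3 knockouts (mean 6.02%) than in their controls (5.90%), with overlapping libraries. Peaks in shorter internal coding exons varied more: the Ythdc1 controls had 4559 and 4406, whereas the other 8 libraries had 2303 to 2786. Long exons thus gave 1.12 and 1.03 peaks per short exon peak in the Mettl3 controls, but 0.597 and 0.619 in their Ythdc1 counterparts, with 0.999 and 0.962 for the cKO. The lists hold no read counts, so the depth behind a peak is unknown, and absence from a list is not absence of m6A. A peak also cannot tell fewer methylated copies from less RNA of the gene.

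**Figure D1:**
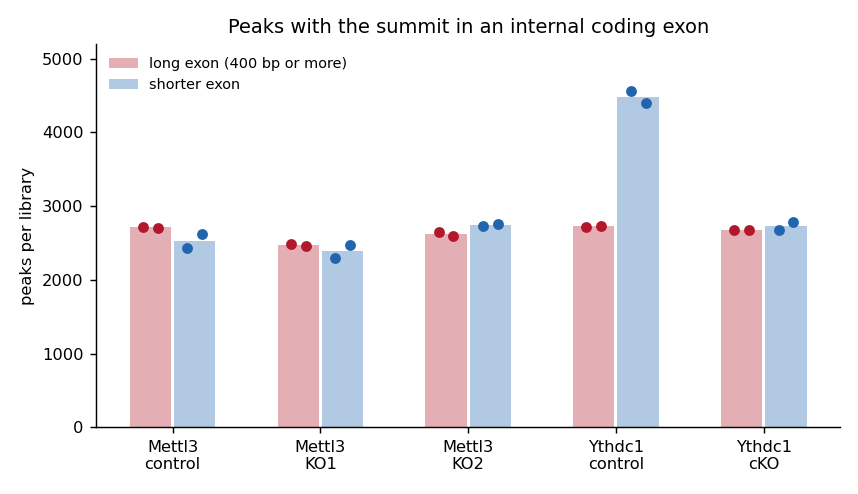
Peaks per library (y axis, number) with the summit in an internal coding exon of 400 bp or more (red) or in a shorter one (blue), by group; bars are means and dots the 2 libraries. The long exon bars all lie between 2459 and 2727 per library, while the short exon bar of the Ythdc1 control, at 4559 and 4406, stands above the other 4.

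Long exons are rare but were hit far more often than short ones. GENCODE M21 holds 4888 internal coding exons of 400 bp or more, in 3878 genes, 3.08% of the 158698 internal coding exons of at least 50 bp. Length classes below include their lower bound and not their upper one. The median internal exon has 127 bp, the median long one 684 bp and the median exon with a region 754 bp. Among genes with any peak in a coding or untranslated exon, the share of exons with a summit in the Mettl3 controls was 0.525% ± 0.0257 (SD, n = 2 libraries, as for the following shares) at 50 to 100 bp, 1.21% ± 0.0234 at 100 to 150 bp and 10.7% ± 0.465 at 200 to 300 bp. It was 40.5% ± 0.745 at 300 to 400 bp, 71.1% ± 1.51 at 400 to 600 bp, 83.0% ± 0.336 at 600 to 1000 bp, 89.4% ± 0.223 at 1000 to 2000 bp and 91.6% ± 0.520 at 2000 bp or more. Longer exons offer more room for a summit, and per length the order within the long exons is the reverse: 155.6 peaks per 100 kb at 400 to 600 bp, 120 at 600 to 1000 bp, 79.3 at 1000 to 2000 bp and 48.8 at 2000 bp or more. Per 100 kb, exons of 50 to 100 bp still had only 6.77 peaks and those of 200 to 300 bp 47.4. Counting a gene as detected only through a peak in another exon gave like shares for the controls, 72.4% at 400 to 600 bp and 91.3% at 2000 bp or more.

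Group differences in this share varied with exon length. At 400 to 600 bp, KO1 had a peak in 63.0% ± 1.06 of exons, KO2 in 65.5% ± 0.652, the Ythdc1 controls in 73.9% ± 1.64 and the cKO in 70.3% ± 0.672. At 300 to 400 bp the shares were 29.8% for KO1, 33.6% for KO2, 47.5% for the Ythdc1 controls and 37.8% for the cKO. At 2000 bp or more all 5 groups lay between 91.0% and 93.7%, where nearly every exon held a peak, while the peaks per 100 kb there were 48.8 in the Mettl3 controls, 52.9 in KO1 and 60.8 in KO2, and 41.9 (cKO) against 48.2 in the Ythdc1 pair of groups. Over all long exons, 80.6% ± 0.496 held a peak in the Mettl3 controls, 77.6% ± 0.265 in KO1 and 78.1% ± 0.0369 in KO2, a difference of -2.74 percentage points for both lines (exact permutation p = 0.067, the smallest possible). The Ythdc1 groups overlapped, with 81.4% ± 0.894 for the control and 81.6% ± 0.421 for the cKO.

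**Figure D2:**
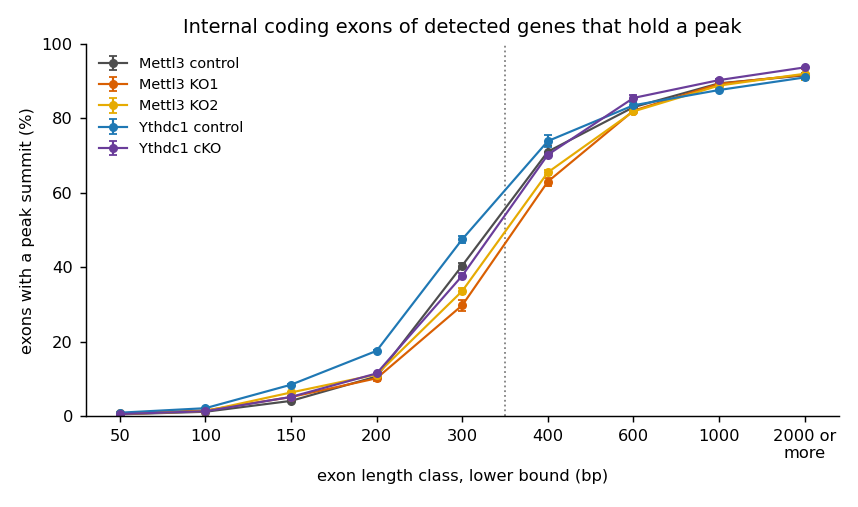
Percent of internal coding exons of detected genes with a peak summit (y axis) by exon length class (x axis, lower bound in bp); points are means and error bars the SD of 2 libraries per group, and the dotted line marks 400 bp. In every group the share climbs from below 1% in the shortest class to above 90% at 2000 bp or more, with the widest spread between groups at 300 to 400 bp.

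Summits kept away from both ends of long exons. In the Mettl3 controls 93.8% ± 0.0507 of the summits were more than 100 bp from both ends, against 75.5% of the positions in the same exons that met the rule. KO1 had 93.0%, KO2 93.6%, the Ythdc1 controls 92.1% and the cKO 93.7%, and the 4 Mettl3 knockout libraries differed from their controls by -0.475 points (exact permutation p = 0.133). The eligible positions were 76.7% in both Mettl3 lines. At more than 200 bp from both ends the difference in summits had the opposite sign, 1.93 points, with 62.3% in the controls, 64.7% in KO1 and 63.7% in KO2, but the eligible positions differed as well, at 50.1% in the controls and 52.6% in each line. Set against the eligible positions, summits of the Mettl3 controls were at a ratio of 0.0631 in the last 25 bp before the 3′ end and 0.360 at 75 to 100 bp from it, then 1.16 at 100 to 150 bp and 1.91 at 150 to 200 bp. From the 5′ end the ratio was 0.307 in the first 25 bp and 0.202 at 25 to 50 bp, and it passed 1 only at 150 to 200 bp, with 1.74 at 250 to 300 bp. The cKO had 0.0685 in the last 25 bp and 1.86 at 150 to 200 bp from the 3′ end, and KO2 had 0.0376 and 1.93. The low stretch was deeper and narrower at the 3′ end than at the 5′ end in each of these groups.

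**Figure D3:**
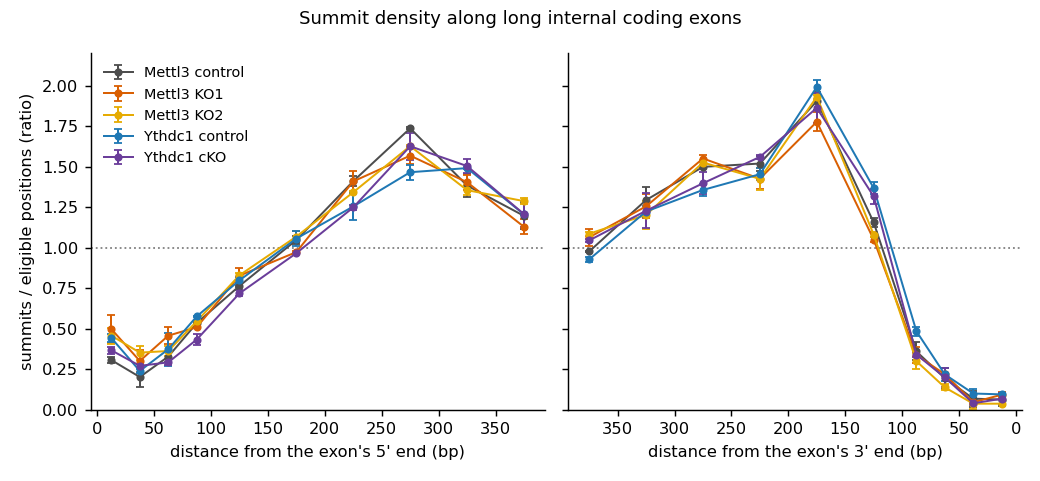
Ratio of summits to eligible positions (y axis) by distance from the 5′ end (left) and the 3′ end (right) of long internal coding exons in bp; points are means and error bars the SD of 2 libraries, and 1 is an even spread. All 5 groups follow the same course, near 0 in the last 50 bp and highest at 150 to 200 bp from the 3′ end.

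The GGAC core was more frequent at the summits than elsewhere in the same exons, in all 5 groups. It lay within 50 nt of the summit on the RNA strand in 53.0% ± 0.791 of member peaks in the Mettl3 controls, against 39.8% of all windows of 101 nt in the same exons, a ratio of 1.33. Ratios for the other groups were 1.32 (KO1), 1.31 (KO2), 1.30 (Ythdc1 controls) and 1.26 (cKO), and the Mettl3 knockouts differed from their controls by -1.05 points with overlapping libraries (exact permutation p = 0.267). Among longer forms in the Mettl3 controls, GGACT and AGACT had a ratio of 1.59 each, GGACA 1.49 and GGACC 1.23, where the GGAC forms also count in the GGAC share. GTCC, the same letters on the other strand, was at 0.872 and CAGG, another word of the same bases, at 1.04. The density of GGAC in the Mettl3 controls was 8.56 per kb at the summit, 4.78 per kb at 200 nt upstream and 4.29 per kb at 200 nt downstream. Sites with and without a call in the Mettl3 comparison, described next, held the motif at similar shares: 62 of 118 lost sites (52.5%, Wilson 95% interval 43.6% to 61.3%) and 52.3% of kept ones. In the cKO comparison 43 of 71 lost sites (60.6%, 48.9% to 71.1%) and 75 of 146 gained sites (51.4%) held it, with intervals that cover counting error only.

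Long exon regions were shared by more libraries than other regions. A peak in all 10 libraries was found for 1979 of 2912 (68.0%), against 18.1% of all regions, 17.5% of regions in short internal coding exons, 42.0% around stop codons, 31.6% in 3′ untranslated sequence away from stop codons and 13.1% in introns. From 1 library came 156 (5.36%), against 18943 of the 87498 regions of all kinds (21.6%). Regions found in all other libraries were missing from KO1 alone in 40 cases (1.37%, against 1.27% of all), from KO2 alone in 19 (0.652%, against 0.307%), from both Mettl3 lines in 33 (1.13%, against 1.22%) and from the cKO alone in 15 (0.515%, against 0.672%). The cKO alone held 93 (3.19%, against 6.375% of all) and the Ythdc1 controls alone 22 (0.755%, against 2.33%), where short exon regions had 6.53% in the Ythdc1 controls alone. No long exon region was found in all 4 Mettl3 knockout libraries and nowhere else, out of 444 such regions in the series. Wide peaks merge more easily, and the median region here was 754 bp wide. Summit positions were compared too: for 1437 regions with 1 peak in every library, the median distance between summits was 5 to 9 bp within a group and 7 to 21 bp between groups. Within 50 bp of each other were 76.6% to 82.0% of the summits within a group and 63.0% to 78.1% between groups, so the rest lay further apart.

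The Mettl3 knockouts were compared with their controls to ask how many of these sites stayed in the peak lists. Most did. A peak in a knockout list is not by itself proof of m6A, so its presence does not show independence of METTL3. Of 2429 long exon regions with a peak in both controls, 120 (4.94%) were missing from all 4 knockout lists and are called lost, against 12.8% of all regions. A peak in all 4 was found for 2020 (83.2%, against 58.2%), and 4 of 2029 regions (0.197%, against 4.4%) were gained, that is present in all 4 knockout lists but in no control list. For KO1 alone 207 (8.52%) were lost, against 23.8% of all, and 9 gained, against 12.5%. For KO2 alone 187 (7.70%) were lost, against 18% of all, and 24 gained, against 14.8%. Both lines share the same 2 controls. Lost regions made up 9.18% of short exon regions, 6.52% around stop codons and 9.32% in 3′ untranslated sequence.

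These shares moved with how a site was defined. With single summits linked within 100 bp in place of merged peaks, 170 of 2309 long exon sites (7.36%) were lost against 14.5% of all and 10.7% in short exons, and 68 (3.95%) gained against 6.56%. A peak in all 4 knockout lists was then found for 1544 of 2309 (66.9%), against 50.6% of all. Counting exons by whether they held any summit, 114 of 2372 long exons (4.81%) lost theirs in all 4 knockout libraries and 12 gained one, while 232 of 1794 shorter internal exons (12.9%) lost theirs. A short exon leaves less room for a displaced summit.

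Losses were most frequent in the shortest of the long exons and among the weakest peaks. By region, 63 of 765 (8.24%) were lost at 400 to 600 bp, 29 of 838 (3.46%) at 600 to 1000 bp, 17 of 558 (3.05%) at 1000 to 2000 bp and 11 of 268 (4.10%) at 2000 bp or more. The control regions of 400 to 600 bp exons were also the weakest, with a median height of 68.9 as the percentile of the fold within its list, against 80.4 to 85.3 in the longer classes. Per exon, the mean share of control exons without a summit in a knockout library was 32.0%, 30.9% and 33.3% at 50 to 200, 200 to 300 and 300 to 400 bp. It was 18.8% ± 3.28 (SD, n = 4 libraries) at 400 to 600 bp, 7.996% ± 0.469 at 600 to 1000 bp and 4.37% ± 1.12 at 2000 bp or more. Height was taken as the percentile of a peak's fold enrichment within its own list, because a fold carries no common scale between lists. In the weakest of 5 bands of control height 42.4% of long exon regions were absent from a knockout library on average, and in the strongest 0.963%, against 37.7% and 4.20% of all regions. Compared within these 5 bands of height, long exon regions were absent in 10.3% ± 0.879, short exon regions in 11.8%, a difference of -1.51 points that was negative in 4 of 4 libraries (exact two-sided sign-flip test, p = 0.13, the smallest possible). The difference had the opposite sign with summits linked within 100 bp in place of merged peaks (3.12 points) and with exons of at least 300 bp (0.950 points). Against regions at stop codons the lines diverged, with -4.72 points in KO1 and 2.23 in KO2 (both lines, -1.24 points, exact sign-flip p = 0.5). Per exon at the same heights the difference from short exons was -8.89 points, negative in 4 of 4 libraries (exact sign-flip p = 0.13). The 4 libraries in these sign-flip tests are 2 of each line set against the same 2 controls, so their signs are not independent.

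**Figure D4:**
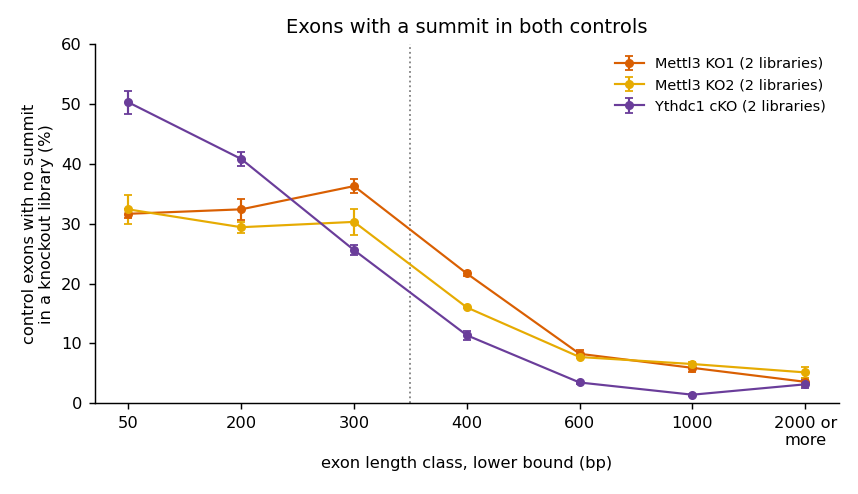
Percent of exons with a summit in both controls that had none in a knockout library (y axis) by exon length class (x axis, lower bound in bp); points are means and error bars the SD of 2 libraries, and the dotted line marks 400 bp. The Mettl3 lines stay near 30% to 36% below 400 bp and fall to 5.16% or less at 2000 bp or more, while the cKO starts at 50.3% in the shortest class.

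Among the strongest lost sites, Csf1 and Tbc1d1 had peaks in both Ythdc1 groups, and Stox1 in the cKO but not the Ythdc1 controls. Of all 120 lost regions, 33 had a peak in every Ythdc1 library and 28 were in the Mettl3 controls alone. Folds are the authors' values and are set side by side between libraries as a description. Csf1 (macrophage colony-stimulating factor), exon 6 of 9 with 1016 bp, had fold enrichments of 12.4 and 9.79 in the Mettl3 controls and no peak in KO1 or KO2. The Ythdc1 controls had 6.55 and 6.30 and the cKO 11.8 and 12.3. Stox1, a winged-helix transcription factor gene, had 8.04 and 7.13 in the Mettl3 controls and 4.86 and 5.03 in the cKO, with no peak in the other 6 libraries. Both are thus absent from all 4 Mettl3 knockout lists and present in both cKO lists. Tbc1d1, a regulator of Rab GTPases in glucose transporter traffic, had 7.13 and 6.58 in the Mettl3 controls and 3.62 to 5.09 in the Ythdc1 groups. Flnc (filamin C, an actin cross-linker) had 8.34 and 6.21, and Lyst (a lysosomal trafficking regulator) 7.31 and 6.37 in the Mettl3 controls. Lyst held 4 long exon regions, and 3 of them had a peak in all 10 libraries. Of the 114 genes with a lost region, 70 still had a coding or untranslated exon peak in a knockout library.

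The strongest kept sites were chosen by their lowest height over the Mettl3 control and knockout libraries, so their folds are a description only. Usp35, a deubiquitinase gene, had folds of 29.2 and 28.2 in the Mettl3 controls. KO1 had 33.5 and 28.4, KO2 28.5 and 25.5, the Ythdc1 controls 16.9 and 22.4, and the cKO 20.04 and 21.7. The Mettl3 knockout values overlap those of their controls. Elk4, an ETS transcription factor gene, had 17.9 and 22.5 in the Mettl3 controls and 22.2 to 24.1 in the 4 knockout libraries, where one control lies within that range and one below it. Clip1, a protein of growing microtubule ends, had 18.2 and 17.9 in the controls and 18.1 to 24.3 in the knockouts. Ankrd24 had 21.9 and 19.8 in the controls and 19.9 to 21.3 in the knockouts.

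Only 4 regions were gained. Myc, the growth-promoting transcription factor, was the strongest: its exon 2 of 772 bp had no peak in the Mettl3 controls. KO1 had folds of 5.26 and 5.09, KO2 7.77 and 9.99, the Ythdc1 controls 4.58 and 4.02, and the cKO 8.51 and 7.55. The Mettl3 controls were thus the only libraries without it. Metap2, a methionine aminopeptidase gene, had 3.64 to 8.65 in the knockouts and 6.25 and 9.80 in the Ythdc1 controls. Atp5d, a subunit gene of ATP synthase, had 3.56 to 4.62 and Tsga10ip 2.98 to 6.42 in the knockouts.

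Among sites that stayed, peaks of the Mettl3 knockouts covered less of the exon in every knockout library than in either control, and the median ranks of long exon, stop codon and all shared regions were lower there. The knockout lists are shorter (40959 to 44496 peaks) than those of the controls (45292 and 46735), so the ranks are given as a description and show no change by themselves. Over the 1979 regions in all 10 libraries the median height was 87.6 in the Mettl3 controls and 79.6 in the knockouts (KO1 81.7, KO2 77.6), with no overlap between libraries. The median fold was 8.89 against 6.96. For regions at stop codons the medians were 80.2 and 69.7, and for all regions in the 10 libraries 77.3 and 71.2. The lead of long exon regions over all regions was 10.3 points in the controls and 8.42 in the knockouts, with overlapping libraries (exact permutation p = 0.4). The lines differed: the lead was 10.8 points in KO1, overlapping the controls, and 6.05 in KO2, where both libraries were below both controls. A height below both controls in all 4 knockout libraries was found for 614 of 1979 (31.0%), against 23% of all regions, and a height above both for 46 (2.32%), against 9.74%. In KO1 alone 833 (42.1%) were lower, against 36.6%, and in KO2 alone 1064 (53.8%), against 38.5%.

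Over all long exon peaks of a library, those of the Mettl3 controls covered a median 84.1% of their exon, those of KO1 74.8% and of KO2 72.5% (both lines against control, exact permutation p = 0.067). In exons of 2000 bp or more the medians were 35.5%, 26.5% and 21.2%. In 1379 regions with 1 peak in every library, each meeting the rule, median coverage was 92.4% in the controls and 86.1% in the knockouts. Their median width was 689 bp in the controls and 618.75 bp in the knockouts. Over all peaks of the lists the median width was 276 bp and 262.25 bp.

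**Figure D5:**
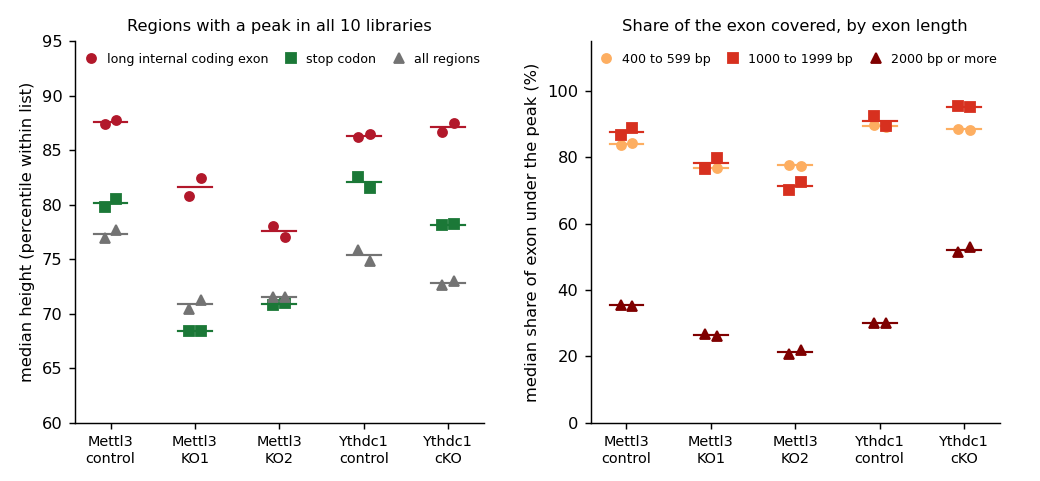
Left, median height (percentile within the list, y axis from 60) of regions with a peak in all 10 libraries, by class; right, median percent of the exon under its peak, by exon length class; each symbol is 1 library and each line a group mean. Long exon regions lie at 87.6 in the Mettl3 controls, 81.7 and 77.6 in the Mettl3 lines and 87.1 in the cKO, and coverage of exons of 2000 bp or more is lowest in KO2 (21.2%) and highest in the cKO (52.1%).

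The Ythdc1 cKO was compared with its control to ask how these sites fare without the nuclear reader. As merged regions, nearly all were found again. Of 2412 regions in both Ythdc1 controls, 76 (3.15%) were lost in the cKO, against 17.8% of all regions, 28.0% in short internal coding exons and 14.0% around stop codons. A peak in both cKO libraries was found for 2272 (94.2%, against 72.4%), and 148 of 2473 regions (5.98%, against 27.9%) were gained. With linked summits the lost and gained shares were higher. Lost were 315 of 2273 (13.9%), against 23.3% of all and 29.3% in short exons, and 277 (12.4%) were gained against 32.0%. The share with a peak in both cKO libraries was lower, at 1712 of 2273 (75.3%), against 62.5% of all. Per exon, 88 of 2371 long exons (3.71%) lost their summit and 998 of 3041 shorter ones (32.8%) did. Absence per exon was 50.3% ± 1.95 (SD, n = 2) at 50 to 200 bp, 25.6% at 300 to 400 bp, 11.4% at 400 to 600 bp and 1.43% ± 0.135 at 1000 to 2000 bp. At matched heights long exons were absent in 5.63% and shorter ones in 26.2%, a difference of -20.6 points that was negative in 2 of 2 libraries (exact sign-flip p = 0.5, the smallest possible). The Ythdc1 controls are the group that stands apart in short exon peaks, with 4559 and 4406, where the cKO had 2682 and 2786 and the Mettl3 libraries 2303 to 2758.

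Coverage of the exon was larger in the cKO except in the shortest of the long exons. The median height over the 1979 shared regions was 86.3 for the Ythdc1 controls and 87.1 for the cKO, while stop codon regions had 82.1 and 78.2 and all regions 75.4 and 72.8. The lead over all regions was 10.99 and 14.3 points, without overlap (exact permutation p = 0.33, the smallest possible for 2 against 2). A higher rank in both cKO libraries was found for 644 (32.5%, against 25.6% of all) and a lower one for 532 (26.9%, against 33.9%). Over all long exon peaks of a library, the median coverage of the exon was 88.2% in the controls and 91.6% in the cKO, and in exons of 2000 bp or more 30.2% and 52.1%. In exons of 400 to 600 bp they covered 89.4% and 88.5%, lower in both cKO libraries (exact permutation p = 0.33 for all 3). Peaks per 100 kb of those longest exons were 48.2 in the controls and 41.9 in the cKO, so fewer peaks were called there and they covered more of the exon.

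The strongest losses in the cKO were in genes of varied function. Chga (chromogranin A, of secretory granules) had folds of 8.28 and 8.04 in the Mettl3 controls. KO1 had 8.68 and 7.08, KO2 12.1 and 13.5, and the Ythdc1 controls 9.75 and 11.8. This region is thus missing from the cKO libraries alone. Chga held 2 long exon regions, and the other had a peak in all 10 libraries. Fat2, an atypical cadherin gene, had 3.11 to 5.83 in the Mettl3 libraries, 7.28 and 7.18 in the Ythdc1 controls and no peak in the cKO. Qprt, an enzyme of NAD synthesis, had 7.0 and 6.42 in the Ythdc1 controls, and Jade3, a scaffold of a histone acetyltransferase complex, 5.91 and 6.29. Jade3 was absent from KO1 and KO2 as well, 1 of 9 regions lost in both comparisons (7.5% of the Mettl3 losses and 11.8% of the cKO losses). These 9 are 0.309% of long exon regions, against 325 (0.371%) of all regions. A Mettl3 loss without a peak in both Ythdc1 controls could not be lost in the cKO. Of the 71 genes with a region lost in the cKO, 44 had a coding or untranslated exon peak in a cKO library.

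Kept sites of the cKO comparison included Palb2, whose protein joins BRCA1 and BRCA2 in repair by homologous recombination. Its folds were 19.9 and 16.1 in the Mettl3 controls, while KO1 had 11.5 and 11.5, KO2 12.3 and 15.3, the Ythdc1 controls 18.4 and 19.2, and both cKO libraries 19.2. All 4 Mettl3 knockout libraries were below the other 6. By height, 31.0% of the 1979 shared long exon regions were below both Mettl3 controls in all 4. Nab1, a co-repressor of EGR transcription factors, had 17.5 and 17.8 in the Mettl3 controls, 7.68 to 11.5 in the 4 knockout libraries and 17.6 to 21.2 in the Ythdc1 groups. Zfat, Ssh1 (a cofilin phosphatase) and Faap100 (of the Fanconi anaemia core complex) had 18.4 to 25.4 in the cKO and 18.6 to 22.3 in the Ythdc1 controls.

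Gained sites of the cKO were spread over many genes. The 148 regions lay in 113 genes, and Pclo (piccolo, a very large presynaptic scaffold) held 11 of them out of 13 long exon regions. Pclo exon 2, of 1483 bp, had folds of 14.7 and 12.4 in the cKO, 3.45 and 3.13 in the Mettl3 controls, 4.05 in 1 KO1 library and no peak in the Ythdc1 controls. Pclo exon 6, of 2018 bp, had 10.7 and 9.82 in the cKO and no peak elsewhere. Pdzd2 held 4 of 4, Hivep2 (a zinc finger transcription factor gene) 4 of 7, and Zfp608 and Zhx3 3 each. Rnf43, a ubiquitin ligase that dampens Wnt signalling, had 9.56 and 11.8, Scara5, a scavenger receptor, 10.3 and 9.32, and Grin2a, a subunit of the NMDA receptor, 9.30 and 9.70, all in the cKO only. Of the 148 regions, 93 had no peak in any Mettl3 library and 36 had a peak in both Mettl3 controls. In 88 of the 113 genes no long exon region had a peak in a Ythdc1 control, and 51 had an exon peak of any kind there.

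The controls of the 2 lines differed from each other too. Of the same 2429 Mettl3 control regions, 95 (3.91%) were missing from both Ythdc1 controls, against 25% of all regions, 2282 had one in both, against 65.8%, and 82 of 2412 (3.40%) were in the Ythdc1 controls only, against 18.8%. Heights were lower in both Ythdc1 controls for 657 of the 1979 shared regions (33.2%), against 32.4% of all, and higher for 494 (24.96%), against 27.9%. More regions are thus called lost between these 2 controls than between the Ythdc1 control and the cKO. Sites in the Ythdc1 controls alone numbered 22, and 4 of the strongest by height are named here: Zscan22 (a zinc finger gene) had 5.86 and 7.49, 9130401M01Rik 5.54 and 5.41, Lrig3 4.48 and 4.97, and Catsper2, a gene of the sperm calcium channel, 4.31 and 4.60. The median fold over all peaks of these lists was 4.48 and 4.64.

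The exons named next are the longest with a region in all 10 libraries, so their presence in every library follows from the choice. Exon 274 of Ttn (titin, the giant muscle protein) has 17106 bp, and its region of 17176 bp held 42 peaks over the 10 libraries, with the strongest fold per library between 5.60 and 8.97. Stard9, a kinesin gene, with 9837 bp had 9.78 to 20.4, Map1a (a microtubule-associated protein) with 8104 bp 11.6 to 16.6, and Spen (a co-repressor in X inactivation) with 8020 bp 4.99 to 9.99. Exon 10 of Unc13b, of 8367 bp, held 7 separate regions, more than any other exon. One of these had 13.5 and 14.6 in the Mettl3 controls and 8.98 to 11.7 in their knockouts. It had 12.9 and 13.0 in the Ythdc1 controls, with 8.32 and 7.89 for the cKO, so every knockout library lay below its controls. By height, 31.0% of shared long exon regions were lower in all Mettl3 knockout libraries and 26.9% in both cKO libraries. Another 3 of the 7 Unc13b regions were lost in the Mettl3 comparison, with folds of 3.57 to 5.23 in the controls. In contrast the regions in exon 26 of Apob, the apolipoprotein of low-density lipoproteins, and exon 8 of Prune2 had no peak in any Mettl3 library.

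Lists of genes with roles on chromosomes and in the nucleus were looked up in turn. Of 30 DNA repair and replication genes with a long internal coding exon, 29 had a region, against 2219 of 3878 over all genes with such an exon, and 40 of their 43 regions were in all 10 libraries. The 3878 include genes without any exon peak. In detected genes 80.6% of long exons held a peak in the Mettl3 controls, and a preference for these functions was not tested. Pms2 (mismatch repair) had folds of 14.4 to 24.6 over the 10 libraries, Trp53bp1 12.0 to 22.0 and Mlh3 10.4 to 19.8. In mitosis, centromere and centrosome genes, 30 of 30 had a region and 49 of 50 regions were in all 10 libraries, with Cep350 at 10.6 to 20.9. In histone methylation and acetylation genes, 39 of 39 had a region and 65 of 72 regions were in all 10, with Setd1b at 10.4 to 17.9 and Kdm6b, an H3K27 demethylase, at 8.50 to 25.5. In chromatin remodelling genes, 24 of 24 had a region, 34 of 41 were in all 10 and 3 were lost in the Mettl3 comparison. DNA methylation and TET genes had regions in 8 of 8, with 10 of 15 in all 10 libraries and 2 lost in the Mettl3 comparison. Nuclear pore and RNA processing genes had them in 27 of 28, with 42 of 47 in all 10 and 0 lost in either comparison. Over all long exon regions the corresponding counts were 1979 of 2912, 120 lost in the Mettl3 comparison and 76 in the cKO.

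Marker genes of the cell type and of other cell types were checked in the same way. Of 25 pluripotency and early development genes with a long internal coding exon, 20 had a region, 26 of 33 regions were in all 10 libraries and 0 were lost in either comparison. Nr5a2, a nuclear receptor gene, had folds of 7.12 to 14.8 over the 10 libraries. Of 7 differentiation marker genes 2 had a region, with Nodal at 4.61 to 11.7 in all 10 libraries and Dab2 at 3.21 in 1. Of 5 fibroblast and matrix genes 2 had one, and Fn1 (fibronectin) was in all 10 at low folds of 1.67 to 3.05. The other, Lox, had its 1 region lost in the Mettl3 comparison, against 120 of 2429 long exon regions (4.94%). Of 6 genes of the 2-cell-like state only Usp17le had one, with 12.5 and 11.3 in the Mettl3 controls, no peak in KO1, and 4.66 to 6.17 in KO2 and the Ythdc1 groups. The others are Zscan4b to Zscan4f, of 1 gene family and each with a longest internal coding exon of 472 bp. Whether reads could be placed uniquely there was not tested. In cytoskeleton, adhesion and cell surface genes 29 of 36 had a region and 13 of 75 regions were gained in the cKO, 11 of them in Pclo, against 148 of all 2912 long exon regions.

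The m6A machinery itself carried such sites: 8 of 9 genes with a long internal coding exon had a region, and 12 of 13 regions were in all 10 libraries. The cytoplasmic readers Ythdf3 and Ythdf2 had folds of 7.81 to 11.9 and 6.31 to 9.84, the demethylase Fto 4.80 to 7.98 and Virma, a scaffold of the methyltransferase complex, 4.34 to 12.3. Fto was lower in all 4 Mettl3 knockout libraries (4.80 to 5.30) than in both controls (7.07 and 6.10). The median fold of the 1979 shared long exon regions was lower too, 6.96 against 8.89, so this was not particular to Fto. Exon 3 of Mettl3, of 405 bp, had 6.15 and 5.06 in the Mettl3 controls and no peak in KO1. KO2 had 3.63 and 2.65, the Ythdc1 controls 6.97 and 3.44, and 1 cKO library 4.24. Exon 4 of Ythdc1, of 427 bp, had a peak in all 10 libraries, at 2.52 to 3.62, with 2.90 and 3.34 in the cKO. Whether these exons lie within the deleted sequence is not given in the sources used here, so neither checks the labels.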

How the data were processed

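Peak lists of 10 m6A immunoprecipitations were used as deposited. The build mm10, MACS2, the aligner HISAT2 2.1.0, the read trimmer Trimmomatic 0.38 and CASAVA are named in the submitters' processing notes. The MACS2 version, its settings and the use of inputs are not given in the sources used here. Per the names in the deposited files, peaks were called per library and strand. The authors' value for each peak is a fold enrichment, a ratio that was ranked only within its list. The deposited −log10 q-values served for 1 alternative with a minimum of 5, and the deposited display score was not used. The summit offset is the authors' position of the highest signal.

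Summits were annotated with GENCODE M21 in Python 3.11.15 with pandas 2.3.3, numpy 2.4.6, scipy 1.17.1 and matplotlib 3.10.9. Groups follow the titles. Exact permutation tests over libraries, at 2 against 4 or 2 against 2, were used, and the scripts were tested on simulated data. The alternatives were other exon lengths, stop distances, overlaps and heights, linked summits and each library left out. Named are the 5 regions per call with the highest of their lowest within-list percentile, the 5 longest exons with a region in all 10 libraries, the 5 exons with the most regions, the 5 strongest in the Ythdc1 controls alone, up to 4 per gene list, and Mettl3 and Ythdc1; some of these regions and sequences are not reported here. Members, 12 gene lists and tests were chosen with earlier results of these data known. Replicates differed (89 to 151 identical peaks per pair), and depth is unknown.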

Additional observations from a re-analysis of the deposited data

Results flagged for a closer look

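Peaks per 100 kb of long internal coding exons in detected genes moved in opposite directions in the Mettl3 lines. They were 95.1 ± 0.997 (SD, n = 2) in the Mettl3 controls and 92.2 ± 0.502 in KO1, a difference of -2.8645, with both KO1 libraries below both controls. In KO2 they were 96.8 ± 0.0528, a difference of 1.7145, with both libraries above both controls. The difference between the lines was not tested. In exons of 2000 bp or more the value was 52.9 in KO1 and 60.8 in KO2, against 48.8 in the controls.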

How the results depend on the processing

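With 2 libraries per group few tests can pass any threshold, and peak lists carry no read counts, so calls near the detection limit depend on depth that is unknown. Of 622 alternative values for 52 results, 558 were counted as the same, 37 as moved and 27 as changed in sign. The cause was not tested. For differences, being counted as the same means the same sign and does not show that the size held. For both Mettl3 lines, absence minus that of short exons within height bands was -1.51 points. With each library left out in turn it ranged from -3.05 to -1.18 points. With exons of at least 300 bp, lost regions numbered 184 for both Mettl3 lines, 320 for KO1, 285 for KO2 and 172 for the cKO, and gained ones 45 for KO2 and 160 between the controls. Absence minus that of short exons was then 0.950, 1.099 (KO1) and 0.8004 points (KO2), the end-distance share of KO2 0.164, and the share of exons with a peak -2.47 points in the cKO. With at least 600 bp, lost regions were 57, 91 (KO1), 103 (KO2), 28 (cKO) and 63 (controls), gained ones 10 (KO2) and 38 (controls), end-distance differences 0.0656 and 0.369 (KO2), differences in peak number 14.5 (KO2), 7 (cKO) and -27.5 (controls), and the exon share -0.377 between the controls. More than 400 bp from stop codons it was -0.206 in the cKO. Exons first or last in no transcript gave 1 gained region, 4 in KO1, and -5.5 peaks between the controls. Linked summits gave gained counts of 68, 156, 231, 277 (cKO) and 358 (controls), lost counts of 312 (KO1), 304 (KO2), 315 (cKO) and 342 (controls), absence minus short exons of 3.12, 1.57 and 4.66 points, minus stop codons of 2.23 and 1.08 (cKO), and minus 3′ untranslated sequence of 0.561 (KO2). Without bands of height, linked sites were still lost less often in long exons than in short ones (7.36% and 10.7% for both lines). For summits more than 200 bp from the ends the differences were 1.93, 2.43 and 1.42 points. Loss from at least 3 of 4 libraries gave 182, and without height bands KO2 was -2.51 against stop codons. Chosen after seeing the data, fixed exons gave 12, 26 and 40 gained, and detection through another exon -0.627 in the cKO.

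The numbers of the replicates did not pair the libraries (correlations of -0.0498 to 0.0753 over 1979 regions). Permuting within replicate numbers changes only the p-value of a difference, so the 25 replicate block fits could not change direction. For the share of long exons with a peak (-2.74 points) this gave p = 0.111 (exact permutation). Leaving out each library in turn, a region needs a peak in fewer libraries and counts grow: lost 131 to 174 for both lines, 105 to 124 in the cKO, and gained 4 to 7 for both lines, 16 to 21 in KO1, 30 to 52 in KO2 and 101 to 125 between the controls. Among the counts, changes beyond 1.5 times came without Ythdc1 control 2 (cKO lost, 124, and gained between the controls, 125). Gained counts also changed so without Mettl3 control 1 (both lines, 7, and KO1, 16) and Mettl3 control 2 (KO1, 18). The other such changes in gained counts were without each KO1 library (KO1, 21) and each KO2 library (KO2, 39 and 52). The exon share ranged from -3.09 to -2.38 for both lines and from -0.411 to 0.853 in the cKO, and the motif difference of KO1 from -1.93 to 0.391. The sign changed without Ythdc1 control 2 or cKO 1 (exon share, -0.411 and -0.0771) and without KO1 2 (motif, 0.391).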
